A study of Mus musculus with 4 samples.

Results

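The genes described here make up the machinery of cell division: the kinases and cyclins that start mitosis, the spindle checkpoint, the apparatus that separates sister chromatids, and the proteins that divide the cell. They were chosen by symbol from a list of 43 names for 42 genes, since Cdk1 is also written Cdc2a, the symbol the files use. Both deposited tables hold all 42 among their 35604 rows. A member counted as measured where its row had status OK and at least 1 FPKM (fragments per kilobase of transcript, scaled to the mapped fragments of the library) in either library. In culture 39 members were measured, among 12676 genes compared there. In tumours 41 were measured, among 15550.

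The study asked how NXD30001, which the series calls an HSP90 inhibitor, alters RNA in mouse Schwann cells that lack a working Nf2 gene, the tumour suppressor of neurofibromatosis type 2. All 4 libraries came from ESC-FC1801, embryonic Schwann cells on the FVB/N background with genotype Nf2Flox/Flox, made NF2-/- in culture with Ad-Cre, an adenovirus carrying Cre recombinase. 1 culture received DMSO and 1 received 1 µM NXD30001, each for 24 h. The tumours came from mice bearing ESC-FC1801 cells, given vehicle or 100 mg/kg NXD30001, each 3 times a week for 4 weeks. The medium of the cultures held neuregulin and forskolin, which drive Schwann cell growth. How many clones, animals or pooled tumours stand behind a library, the ages of the mice and the time from the last dose are not given in the sources used here. Each group is 1 library, so no value has a replicate error, no test of treatment was possible, and "lower" and "higher" describe these libraries.

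Division runs on oscillating protein complexes. Cyclin A2 and the B cyclins bind CDK1, whose activation by CDC25 phosphatases and restraint by WEE1 set the time of entry. Aurora and Polo-like kinases then build the spindle, the checkpoint holds back the anaphase-promoting complex (APC/C) until chromosomes are attached, and its release frees separase and lets cytokinesis begin. RNA of most of these genes peaks in G2 and M phase. In resting cells their promoters are held silent by the DREAM complex, and in cycling cells they are switched on by MuvB with B-MYB and FOXM1. The site MuvB binds is the cell cycle genes homology region (CHR), often found with CCAAT boxes, the sites of NF-Y.

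Because nearly all members were lower together in culture, their promoters were searched for these letters. RefSeq promoters of build GRCm38.p6, each 250 bases before to 50 after a transcription start, matched 33 of the 42 members by symbol. The CHR core, TTTGAA or TTCGAA on either strand, was in a promoter of 24 of the 33 (72.7%), against 21.7% of all 27025 genes in the table. CCAAT on either strand, which can share an end base with the core, was in 25 of the 33 (75.8%), against 41.1% of all genes. Both motifs stood in 1 promoter for 22 members (66.7%), against 8.61% of all genes. The 4 sequences below are the 250 bases before the start, with CHR cores and CCAAT boxes in capitals. They are the members with the largest and the smallest difference in culture among those that hold the core (Mki67 and Cdc20) and among those that lack it (Nusap1 and Mad2l1), taken from genes with a single listed start. Mki67 lies on the minus strand at chr7:135716380-135716629, Cdc20 on the minus strand at chr4:118437344-118437593, Nusap1 on the plus strand at chr2:119618048-119618297 and Mad2l1 on the plus strand at chr6:66534971-66535220.
Mki67: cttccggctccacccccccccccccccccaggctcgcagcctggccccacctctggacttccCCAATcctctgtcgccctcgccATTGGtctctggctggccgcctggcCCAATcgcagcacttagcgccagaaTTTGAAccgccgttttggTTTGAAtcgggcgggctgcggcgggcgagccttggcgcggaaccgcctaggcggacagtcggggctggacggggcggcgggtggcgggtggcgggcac
Cdc20: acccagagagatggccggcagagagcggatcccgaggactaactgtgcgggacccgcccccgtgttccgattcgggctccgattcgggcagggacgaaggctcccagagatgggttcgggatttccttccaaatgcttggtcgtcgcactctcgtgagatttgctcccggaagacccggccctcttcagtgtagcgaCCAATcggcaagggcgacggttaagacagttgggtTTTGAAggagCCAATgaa
Nusap1: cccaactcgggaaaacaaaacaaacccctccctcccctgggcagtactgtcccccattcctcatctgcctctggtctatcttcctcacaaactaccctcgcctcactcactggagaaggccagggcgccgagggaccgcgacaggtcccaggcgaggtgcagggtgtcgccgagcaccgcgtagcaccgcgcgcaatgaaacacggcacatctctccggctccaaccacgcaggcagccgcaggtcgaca
Mad2l1: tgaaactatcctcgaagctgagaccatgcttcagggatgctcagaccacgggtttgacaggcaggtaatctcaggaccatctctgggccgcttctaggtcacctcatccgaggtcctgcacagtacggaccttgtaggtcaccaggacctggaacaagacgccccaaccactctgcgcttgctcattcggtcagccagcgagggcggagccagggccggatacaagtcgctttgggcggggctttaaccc

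The Mki67 stretch holds 2 CHR cores and 3 CCAAT boxes, and the Cdc20 stretch 1 and 2. Neither motif is in the Nusap1 or Mad2l1 window. In culture the 21 measured members with a core had a median difference of -3.96 and the 9 without one -4.03, a gap smaller than the spread within either set. These differences are log2(FPKM + 1) after treatment less the untreated value, the scale of every difference given here, which understates the change of low genes. A match of letters is a description and not a bound site.

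Treated cultured cells held far less RNA of nearly every mitosis gene than DMSO cells. All 39 measured members were lower, and 38 of them were at least 2-fold lower, where 24.8% of all compared genes were. The median difference was -3.70, against -0.25 over all compared genes. By the calls in the authors' deposited table, 36 members were lower and none higher, while 7.14% of all compared genes were called lower and 2.75% higher. The members' median level was 52.0 FPKM in DMSO cells and 3.15 FPKM in treated cells. Ranked within their own library, they stood at a median of percentile 79.8 of the compared genes with DMSO and percentile 30.7 with the drug. In bulk RNA, fewer dividing cells and less of these RNAs in each cell cannot be told apart.

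In the treated tumour the same genes stood close to their vehicle level. Of 41 measured members, 27 were lower and 14 higher, with a median difference of -0.11 against -0.03 over all compared genes. Only Sgol1 was at least 2-fold lower, where 6.93% of compared genes were, and none was 2-fold higher, where 7.32% were. The authors' deposited table called none of the 41, while it called 2.45% of compared genes lower and 3.14% higher. Their median level was 26.4 FPKM in the vehicle tumour and 24.4 FPKM in the treated one, and the median percentile 63.0 and 61.2. Over the 39 members measured in both tables, the summed FPKM was 0.224% of that of all protein-coding rows with vehicle and 0.221% with the drug, while in culture this share went from 0.855% to 0.0854%.

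**Figure D1:**
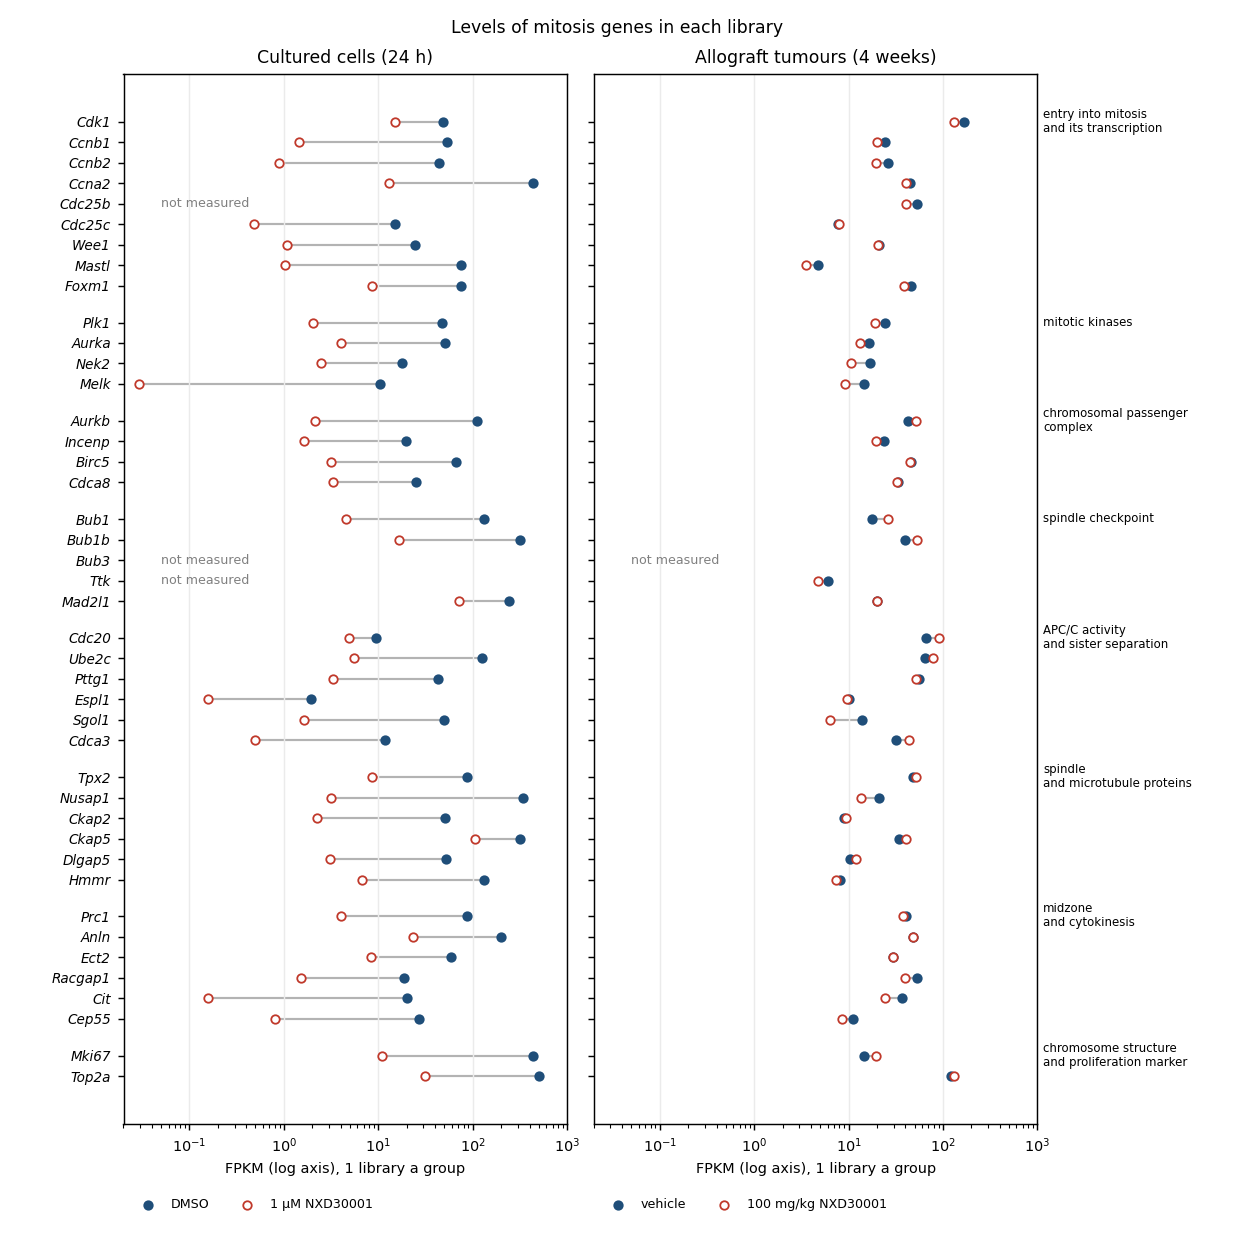
FPKM of each mitosis gene (log axis) in the untreated library (filled) and the treated library (open) of culture and of tumours, ordered by role, with 1 library a point. In culture every open point lies left of its filled point, while in tumours the pairs lie within 2-fold except for Sgol1 (13.9 and 6.34 FPKM).

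Genes of entry into mitosis were lower in treated culture for all 8 measured members, with a median of -4.03. Cdk1, the kinase at the centre of the process (ENSMUSG00000019942, chromosome 10 from 68799383 to 68815686, mm9), stood at 48.3 FPKM in DMSO cells against 15.0 FPKM in treated cells. That 3.22-fold ratio was the smallest of the role group, and Cdk1 was its one member that the authors' deposited table did not call. Its partners differed far more. Ccnb1, cyclin B1, was at 52.9 and 1.46 FPKM, a 36.2-fold ratio. Ccnb2, cyclin B2, was at 44.4 and 0.880 FPKM. Ccna2, cyclin A2, was at 433 and 13.0 FPKM. So the kinase kept a larger part of its untreated level than any of its cyclins, though Ccna2 shares its locus entry with Exosc9. Mastl, the Greatwall kinase that restrains the phosphatase opposing CDK1, was at 75.7 and 1.02 FPKM, a difference of -5.24 and the largest of the group. Both sides of the CDK1 switch were lower. Cdc25c, an activating phosphatase, was at 14.9 and 0.483 FPKM, and Wee1, the inhibitory kinase, at 24.3 and 1.09 FPKM. Foxm1, the transcription factor of G2 and M genes, was at 75.6 and 8.66 FPKM. Cdc25b had status FAIL in culture and is not measured there.

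In tumours this role group had a median of -0.25, with 8 of 9 members below 0 and none past 2-fold. Cdk1 was the most abundant member of both tumour libraries, at 168.8 FPKM in the vehicle tumour and 131 FPKM in the treated one. Ccnb1 was at 24.3 and 20.2 FPKM and Ccnb2 at 26.4 and 19.7 FPKM. Cdc25b, measured only here, was at 53.6 and 40.4 FPKM. Nearly level were Cdc25c, at 7.69 and 7.95 FPKM, and Wee1, at 21.1 and 20.6 FPKM. Mastl was at 4.78 and 3.53 FPKM, Foxm1 at 45.4 and 38.3 FPKM and Ccna2 at 44.5 and 40.8 FPKM. Mastl had the largest tumour ratio of the group, 1.35-fold, where its ratio in culture was 73.9-fold.

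The mitotic kinases outside the passenger complex were all lower in culture, with a median of -3.42. Plk1, Polo-like kinase 1, was at 47.5 and 2.02 FPKM. Aurka, the centrosomal Aurora kinase, was at 51.2 and 4.03 FPKM, and Nek2, a kinase of centrosome separation, at 17.9 and 2.47 FPKM. Melk, a kinase abundant in dividing cells, went furthest toward 0, at 10.3 and 0.0295 FPKM. In the tumours these 4 genes were again all on the lower side, and their median of -0.48 was the lowest of the 8 role groups. Melk was at 14.7 and 9.08 FPKM, Nek2 at 16.9 and 10.6 FPKM, Plk1 at 24.5 and 19.3 FPKM and Aurka at 16.6 and 13.3 FPKM. None was called there, and the error that the authors' deposited table implies for the Melk ratio was 0.40 (SE, log2) on a difference of -0.64.

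The chromosomal passenger complex corrects faulty attachments and marks the cleavage plane. Its kinase Aurkb stood at 110.0 FPKM in DMSO cells against 2.12 FPKM in treated cells, a difference of -5.15. Birc5, survivin, was at 67.0 and 3.15 FPKM, Cdca8, borealin, at 25.4 and 3.29 FPKM, and the scaffold Incenp at 19.8 and 1.63 FPKM. All 4 subunits were thus called lower in the authors' deposited table, by 7.70-fold to 51.9-fold. In tumours Aurkb was on the higher side at 42.2 and 52.1 FPKM. Birc5 at 46.4 and 44.5 FPKM, Cdca8 at 33.5 and 32.6 FPKM and Incenp at 24.0 and 19.7 FPKM were each within 2-fold.

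Of the spindle checkpoint, 3 genes were measured in culture. Bub1, a checkpoint kinase of the kinetochore, was at 131 and 4.53 FPKM, and Bub1b, which encodes BubR1 of the inhibitor of the APC/C, at 314 and 16.7 FPKM. Mad2l1, the MAD2 that captures CDC20, differed least, at 242 and 72.0 FPKM. The authors' deposited table implied an error of 1.73 (SE, log2) for Mad2l1, the largest of any member, and made no call. Bub3 and Ttk had status FAIL in culture, Bub3 in tumours too, at a locus entry that spans 42 rows. In tumours Bub1 was on the higher side at 17.7 and 26.4 FPKM, the largest positive difference of any member (0.55). Bub1b too was on the higher side, at 40.1 and 53.4 FPKM. Mad2l1 was level at 20.2 and 20.1 FPKM, and Ttk, the MPS1 kinase that starts checkpoint signalling, was at 6.12 and 4.77 FPKM.

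Genes of APC/C activity and sister separation lay between -4.28 and -0.84 in culture, and 5 of the 6 were at least 2-fold lower. Ube2c, the ubiquitin-conjugating enzyme of the APC/C, was at 125 and 5.49 FPKM. Sgol1, shugoshin, which guards centromeric cohesion, was at 49.8 and 1.63 FPKM, and Pttg1, securin, at 42.7 and 3.29 FPKM. Cdca3, linked to the turnover of WEE1, was at 11.7 and 0.490 FPKM. Espl1, separase, was the least abundant member in DMSO cells, at 1.94 and 0.155 FPKM. No member was left out for its level. Cdc20, the APC/C activator that the checkpoint blocks (ENSMUSG00000006398, chromosome 4 from 118100698 to 118109957), was the only member within 2-fold, at 9.57 and 4.92 FPKM. Its locus entry also covers Elovl1, which was at 18.5 and 35.2 FPKM, so how reads were divided between them is uncertain.

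In tumours Cdc20 was the third most abundant member with vehicle, at 66.4 FPKM, and stood at 90.4 FPKM with NXD30001. Ube2c was likewise on the higher side at 64.0 and 78.7 FPKM, and Cdca3 at 32.1 and 43.5 FPKM. Pttg1 at 55.7 and 51.2 FPKM and Espl1 at 10.2 and 9.67 FPKM were nearly level. Sgol1 (ENSMUSG00000023940, chromosome 17 from 53814111 to 53828658) had the lowest difference of any member there, -1.02, at 13.9 and 6.34 FPKM. For its ratio the authors' deposited table implied an error of 0.59 (SE, log2) and made no call. Centred on the median of all genes, it no longer reached 2-fold.

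Spindle proteins spread the most widely in culture, from -6.36 to -1.56, with all 6 at least 2-fold lower. Nusap1, which bundles spindle microtubules (ENSMUSG00000027306, chromosome 2 from 119435248 to 119476980), stood at 340 FPKM in DMSO cells against 3.15 FPKM in treated cells, a 108-fold ratio and the lowest difference of any member (-6.36). Its locus entry also holds Oip5, at 9.07 and 0.634 FPKM, and a 5S_rRNA row listed at 17490 FPKM with DMSO and at 0 with the drug, so its reads are not assigned with certainty. Ckap5, the microtubule polymerase ch-TOG, differed by -1.56, at 316 and 107 FPKM, and was the most abundant member in treated cells. Between these lay Hmmr at 132 and 6.70 FPKM, Tpx2, the activator of Aurora A, at 86.2 and 8.65 FPKM, Dlgap5 at 52.0 and 3.09 FPKM and Ckap2 at 51.1 and 2.25 FPKM. In tumours 4 of the 6 were on the higher side. Nusap1 was at 20.8 and 13.4 FPKM, Hmmr at 8.14 and 7.44 FPKM, Ckap5 at 34.2 and 40.2 FPKM, Tpx2 at 48.2 and 52.0 FPKM, Dlgap5 at 10.3 and 11.9 FPKM and Ckap2 at 8.93 and 9.33 FPKM.

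Genes of the midzone and cytokinesis were lower in culture for all 6 members, each called in the authors' deposited table. Cit, citron kinase of the midbody, was at 20.3 and 0.157 FPKM. Prc1, which bundles midzone microtubules, was at 86.7 and 4.04 FPKM, and Cep55, of abscission, at 27.3 and 0.814 FPKM. Anln, which encodes the ring protein anillin, was at 199 and 23.4 FPKM. Racgap1, of centralspindlin, was at 18.7 and 1.53 FPKM, and its partner Ect2, the exchange factor that activates RhoA at the equator, at 58.5 and 8.42 FPKM. In tumours Cit had the largest difference of the group at 36.4 and 24.4 FPKM, followed by Racgap1 at 52.9 and 39.3 FPKM and Cep55 at 11.3 and 8.45 FPKM. Prc1 at 40.4 and 37.4 FPKM, Anln at 48.1 and 47.6 FPKM and Ect2 at 29.2 and 29.6 FPKM were nearly level.

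Of the common proliferation markers, Top2a, the topoisomerase that disentangles chromosomes, was the most abundant member with DMSO. It was at 505 and 31.2 FPKM in culture and at 120 and 130 FPKM in tumours. Mki67, Ki-67 of the chromosome surface (ENSMUSG00000031004, chromosome 7 from 142881772 to 142907979), differed by -5.21 in culture and by 0.39 in tumours, where it was at 14.6 and 19.4 FPKM. The locus entry of Top2a also covers a SNORA42 row, listed at 22561 FPKM with DMSO and at 0 with the drug. Ccna2, Cdc25b, Cdc25c, Foxm1, Melk, Ttk, Ube2c, Ckap5, Ect2 and Cep55 also share a locus entry with other rows. Over the 28 members with a locus entry of their own, all 28 were at least 2-fold lower in culture (median -3.85) and 26 were called in the authors' deposited table.

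**Figure D2:**
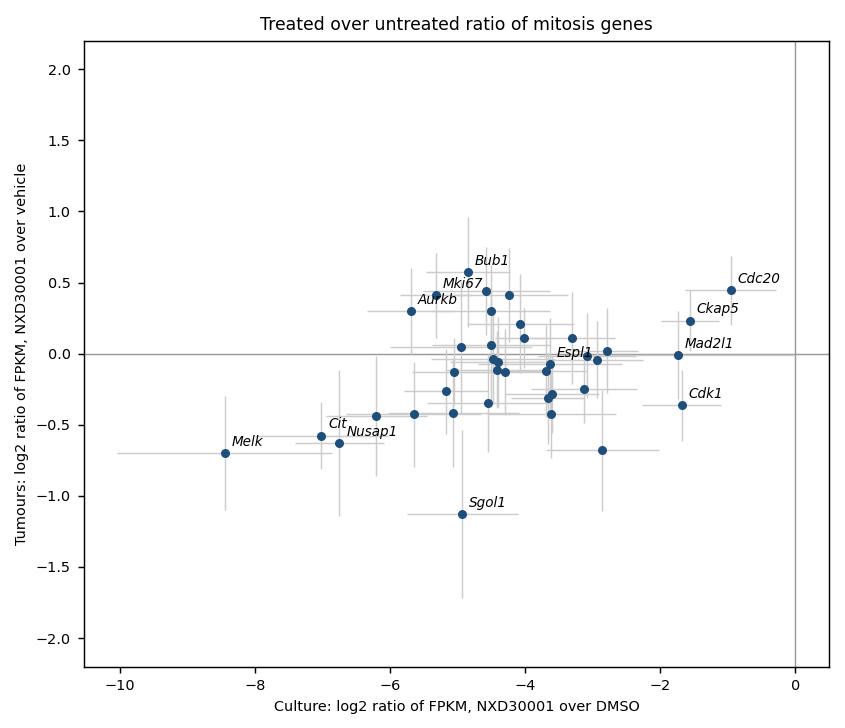
Log2 ratio of treated over untreated FPKM in culture (x axis) and tumours (y axis) for the 39 members measured in both tables, with bars of 1 error as implied by the authors' deposited table. All points lie left of 0 in culture, and in tumours 25 lie below 0 and 14 above.

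Set side by side, 25 of the 39 members measured in both tables were lower in both and 14 were lower in culture and higher in tumours. None was higher in culture. In tumours 19 of the 39 lay beyond the error that the authors' deposited table implies, 13 of them lower and 6 higher. That bar is only 1 error, and the share of all compared genes past it was not counted. In culture the untreated over treated ratio was 1.95 for Cdc20 and larger for every other member, and in tumours the members lay between -1.02 and 0.55. The exposures differed in dose, route and time (24 h against 4 weeks), so the tables show values for 2 settings and not a test between them.

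Other division genes followed the members in culture. Of 40 further mitosis genes, such as kinesins, centromere and condensin genes, 38 were measured, and 37 of these were past 2-fold on the lower side (median -3.50). Of these, 32 had a call in the authors' deposited table, all lower. Hjurp, the chaperone of the centromeric histone, was at 77.2 and 0.681 FPKM, Aspm, of the spindle poles, at 55.5 and 1.21 FPKM, and Smc2, of condensin, at 327 and 12.6 FPKM. Smc4, its partner in condensin, was the exception within 2-fold, at 795 and 509 FPKM. Smc2 and Smc4 each share a locus entry with other genes. DNA replication genes (29 of 31 measured) were all lower with a median of -1.83. At least 2-fold lower were 23 of them, against 24.8% of all compared genes. The authors' deposited table called 11, against 7.14% of all compared genes called lower. Gins2, of the replicative helicase, was at 45.6 and 1.02 FPKM, Uhrf1, which helps to maintain DNA methylation, at 26.9 and 0.309 FPKM, and Prim1, a primase subunit, at 88.2 and 5.16 FPKM. Of these, Gins2 shares its locus entry with other genes. The 14 core subunits and partners of the APC/C, whose RNA varies less over the cycle, had a median of -0.60. At least 2-fold lower were 5, where 24.8% of all compared genes were. The authors' deposited table called 3 lower, where it called 7.14% of all compared genes lower. Of the 14, Anapc7 was at 158 and 3.85 FPKM, Fzr1, which encodes the activator CDH1, at 5.46 and 0.734 FPKM, and Cdc23 at 81.3 and 21.1 FPKM. Each of these 3 has a locus entry shared with other genes, and Fzr1 was not called in the authors' deposited table. Anapc1, at 187 and 87.2 FPKM and called, and Anapc13, at 2333 and 831 FPKM and not called, have entries of their own.

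As a list, regulators of these genes stood nearer to the background than the members did. Of 20 measured DREAM, MuvB, RB and E2F genes, 15 were lower in culture and 5 higher. At least 2-fold lower were 6, where 24.8% of all compared genes were. The authors' deposited table called 4 lower, where it called 7.14% of all compared genes lower. The largest differences were those of E2f8, a repressor, at 34.4 and 0.358 FPKM, E2f3, an E2F factor, at 102 and 7.10 FPKM, and Rbl1, p107, at 12.9 and 0.910 FPKM. Each of these 3 shares its locus entry with other genes, and E2f3 was not called, with an implied error of 1.53 (SE, log2) in the authors' deposited table. The other 14 were within 2-fold, and the list median was -0.72. Of 15 CDK inhibitor and p53 target genes, 13 were within 2-fold, where 7924 of all 12676 compared genes were. Cdkn1a, p21, was at 53.9 and 41.5 FPKM and Cdkn1b, p27, at 44.3 and 56.9 FPKM, while Gadd45a, a stress-induced growth arrest gene, was at 5.73 and 72.2 FPKM and Cdkn2d, p19, at 6.86 and 2.63 FPKM. In this list the authors' deposited table called only Gadd45a, as higher, where it called 2.75% of all compared genes higher and 7.14% lower. Gadd45a and Cdkn1b each share a locus entry with other genes. The 13 measured of 16 heat shock genes were higher in culture (median 0.85). Most of this list is cytosolic, but Hspd1 and Hspe1 in it encode mitochondrial chaperones. At least 2-fold higher were 6 of the 13, where 12.6% of all compared genes were. The authors' deposited table called 3 higher, where it called 2.75% of all compared genes higher. Among the 13, Hspa8, the constitutive HSC70, was at 556 and 4453 FPKM and Cryab, a small heat shock protein, at 258 and 1013 FPKM. The locus entry of Hspa8 is shared with other genes. Hsph1, HSP110, was at 73.7 and 748 FPKM, but the authors' deposited table did not call it and its statistic there was close to 0.

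In tumours the further mitosis genes had a median of -0.04 (39 measured). None was 2-fold lower, and 3 were at least 2-fold higher, near the 7.32% of all compared genes, namely the centromere kinesin Cenpe at 3.06 and 8.07 FPKM, Spag5 at 12.7 and 30.4 FPKM and Kif18a at 0.681 and 2.66 FPKM. Of them only Cenpe was called in the authors' deposited table, and Spag5 and Kif18a each share a locus entry with other genes. All 31 DNA replication genes were within 2-fold there (median -0.27), and so were all 15 CDK inhibitor and p53 target genes (median -0.21). The 14 core subunits and partners of the APC/C had a median of -0.10, and none was called. Only Anapc7, at 59.2 and 28.7 FPKM and with a shared locus entry, was past 2-fold among them. The DREAM, MuvB, RB and E2F list had a median of 0.02, with E2f3 at 7.24 and 19.6 FPKM and E2f2 at 3.91 and 1.15 FPKM as its members past 2-fold. The 16 heat shock genes had a median of -0.02, with Hsph1 at 137 and 67.7 FPKM called lower and Cryab at 157 and 370 FPKM called higher in the authors' deposited table. Over all compared genes in tumours, 6.93% were at least 2-fold lower and 7.32% higher, and 2.45% were called lower and 3.14% higher.

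**Figure D3:**
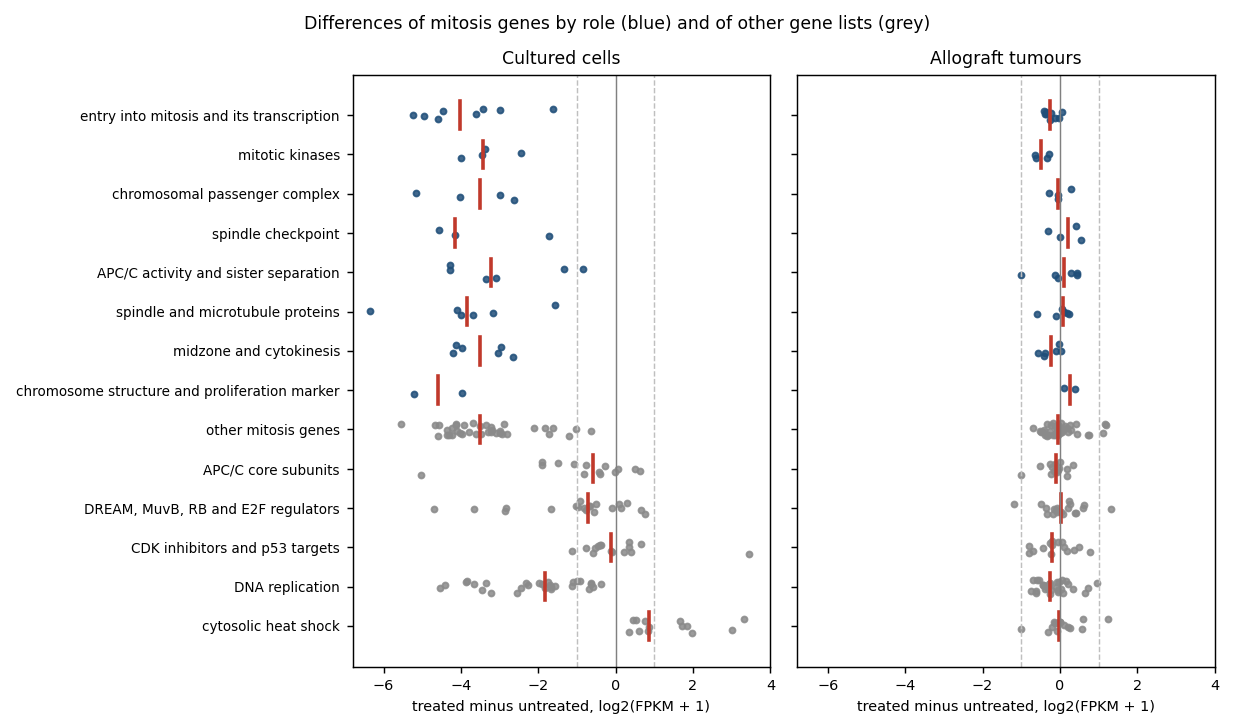
Treated minus untreated difference on the log2(FPKM + 1) scale for each mitosis gene by role (blue) and for genes of other lists (grey), with the median of each list as a red bar and 2-fold as dashed lines. In culture the role medians lie between -4.59 and -3.22, and in tumours between -0.48 and 0.25. The list drawn as cytosolic heat shock also holds the mitochondrial Hspd1 and Hspe1.

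The make-up of the tumour pieces also differed. Of 12 Schwann cell markers 11 were measured in tumours, all higher in the treated library, with a summed level of 245 and 698 FPKM. S100b was under 1 FPKM in all 4 libraries, although it commonly marks Schwann cells. Endothelial markers summed to 101 and 44.7 FPKM (10 measured, 9 lower) and macrophage markers to 1109 and 773 FPKM (10 measured, all lower). The 9 fibroblast markers summed to 4127 and 3348 FPKM, with 6 lower and 3 higher, none past 2-fold and a median of -0.12. Erythroid markers summed to 315 and 5.10 FPKM (5 measured, 4 lower and 1 higher), with Hba-a1 and Hba-a2 listed at 0 in the treated library and Epb4.2 among those at 0 in both. The higher one was Alas2, at 0.610 and 4.72 FPKM, which made up most of the treated sum. T and B cell markers summed to 2.88 and 2.86 FPKM, with Cd3e, Cd8a, Cd2 and Ms4a1 among those listed at 0 in both, and neutrophil markers to 11.8 and 53.9 FPKM, with Ly6g and Camp listed at 0 in both. Dividing host cells can carry mitosis RNA too, and the part of these shifts in the small tumour differences was not tested. In culture the endothelial, macrophage, T and B cell, neutrophil and erythroid lists each summed to under 3 FPKM in either library. The fibroblast list, with 4 of 9 genes measured in culture, summed to 1295 FPKM with DMSO and 1130 FPKM with the drug. Col1a1, Col1a2, Col3a1 and Pdgfra, the 4 genes measured in culture, are thus not particular to host cells. Dcn, Dpt, Fap, Lum and Thy1 were under 1 FPKM in both cultures but were measured in tumours. The source of the tumour RNA of this list was not tested. The measured Schwann markers in culture had a median of -1.28, with 7 at least 2-fold lower and 2 at least 2-fold higher.

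Levels cannot be carried from one table to the other gene by gene. The tables were made separately, and the level in DMSO culture minus that in the vehicle tumour was lower for genes of higher GC content in the longest transcript, with a Spearman rho of -0.62 over 10959 genes compared in both tables and -0.59 over the 39 members. These are descriptions across genes of the same libraries, and genes are not independent replicates. Mki67 (GC 46.6%) was 4.80 higher in DMSO culture on the log2(FPKM + 1) scale, and Cdc20 (GC 55.6%) stood at -2.67. Treated minus untreated differences depended far less on GC, with a rho of 0.11 in culture and 0.12 in tumours over the 10959 genes. Over the 39 members it was 0.22 in culture and 0.05 in tumours. Within ranges of GC that held 3 or more members, the members' median in culture lay between -4.12 and -2.66, while all genes of those ranges had medians between -0.35 and -0.15.

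**Figure D4:**
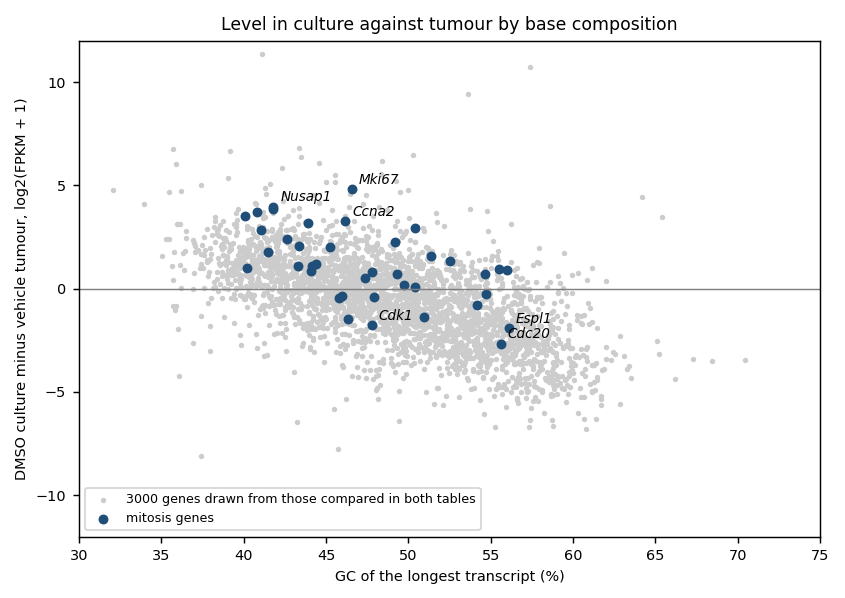
Level in the DMSO culture minus that in the vehicle tumour (log2(FPKM + 1)) against GC content of the longest transcript, for 3000 genes drawn from those compared in both tables (grey) and the 39 mitosis genes (blue). Genes of low GC stood higher in culture and genes of high GC higher in the tumour, with Cdc20 at -2.67 and Mki67 at 4.80.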

How the data were processed

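Total RNA of 2 cultures and 2 tumours was sequenced, 1 library per group. Per the submitters' processing notes, Cuffdiff and Cufflinks 1.0.2, TopHat 1.2.0, CASAVA and build mm9 were used. The authors deposited 2 gene tables with FPKM and, for their own comparison of 2 libraries, a fold change on the natural log scale. The authors' test statistic and q-value were also deposited and are treated as scores. Deposited q-values reached 2.05, and called genes had q under 0.05. The sources used here do not say whether strand was kept.

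Groups came from titles and sources, although the sample type label calls all 4 cultured cells. Rows of status FAIL (705 in culture, 347 in tumours) and LOWDATA (61 and 449) were left out. Differences were log2(FPKM + 1), treated minus untreated. No test was run, and calls are those of the authors' tables. The implied error is the deposited natural log fold divided by the statistic, on the log2 scale without a pseudocount, and covers no biological spread. Per-library fragment totals are not in the FPKM. Genes whose error was that of 1 fragment in each library put the treated library at 1.05 times the depth of the untreated one in culture (40 genes) and 1.19 times in tumours (56 genes). The median implied error of genes at 30 to 100 FPKM was 0.69 and 0.30, so single differences in culture are less certain. A locus given to several rows marks uncertain assignment of reads. Starts in the files counted from 0 (end minus start equalled the GENCODE M21 gene length for 10580 of 19955 single-gene loci, and the length less 1 for 268), and 1 was added. GC came from the longest GENCODE M21 transcript by gene ID (39 of 39 culture members, 41 of 41 tumour members). Members and lists were chosen with earlier results of these data known. Every member is accounted for, with the extremes of each table and every exception in full. From other lists, up to 3 genes with the largest difference per list and table were named, and up to 3 past 2-fold against their list's median. Smc4, Cdkn1a, Cdkn1b, Lin9, Mybl2, Tfdp1, Anapc1 and Anapc13 were added after their values were seen. Calculations used Python 3.11.15, pandas 2.3.3 and NumPy 2.4.6, and were tested on simulated data. Values of some single marker genes are not reported here.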

Additional observations from a re-analysis of the deposited data

Results flagged for a closer look

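For 6 members the tumour difference lay beyond its implied error on the side opposite to culture. All 39 members measured in both tables lay beyond their implied error in culture, so that condition left none out. The bar is only 1 implied error, and the share of all compared genes past it was not counted. Another 13 of the 39 members measured in both tables lay beyond their implied error in tumours on the lower side, as in culture. In the tumours, by the difference of log2(FPKM + 1) between treated and vehicle, Bub1 was at 0.55, Cdc20 at 0.44, Cdca3 at 0.43, Bub1b at 0.40, Mki67 at 0.39 and Ckap5 at 0.23. In culture these genes were at -4.58, -0.84, -3.09, -4.16, -5.21 and -1.56. The difference between the settings was not tested, each setting is 1 pair of libraries, and none of the 6 was called in the tumour table of the authors.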

How the results depend on the processing

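In culture the count of members at least 2-fold lower was 28 to 38 over 8 alternatives, the lowest being all 28 members with a locus of their own. The median over members stayed between -4.32 and -2.74, and only a pseudocount of 5 FPKM moved it by more than the median implied error, to -2.74, since a larger pseudocount shrinks the change of low genes. The authors' calls went from 36 to 34 with a deposited q under 0.01 and to 26 without shared loci. In tumours the count of members 2-fold lower was 1, and 0 with a pseudocount of 5 FPKM, with centring on the median of compared genes, with upper quartile scaling and with centring within GC ranges. The tumour median stayed between -0.11 and -0.02 over 9 alternatives. The culture median of all genes was -0.25, and after centring on it the members' median was -3.45. The treated share of summed FPKM over the untreated one was 0.0356 in culture over all rows with status OK, where single rows reach 17786400 and 55493300 FPKM, but 0.0963 without the 1% most abundant compared genes and 0.0999 over protein-coding rows. In tumours it was 0.910, 0.999 and 0.988. Centring within GC ranges, the protein-coding share and the restriction to members measured in both tables were chosen after seeing the data. No paired analysis was possible because each group has 1 library.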
